A study of Mus musculus with 24 samples.

Results

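Genes of protein folding and stress in the endoplasmic reticulum (ER) were followed over a light-dark cycle in hearts of Clock mutant mice. The names Hspa5, Hsp90b1, Canx, Calr, Pdia3, Pdia4, Pdia6, Herpud1, Sel1l and Xbp1 were given, and a gene was taken where an array feature carried its symbol and no other. This left 9 of the 10 names, with 1 feature each, among 22180 genes on the array. The feature of Pdia4, a further protein disulfide isomerase, also carries the symbol of the microRNA gene Mir704, so Pdia4 was not used. The study measured transcripts on single-colour Affymetrix arrays in 24 hearts. All mice were males of 8 weeks with both copies of Clock carrying the delta 19 mutation, which yields a CLOCK protein that lacks its activating stretch. They were kept in 12 h of light and 12 h of dark, and the labels name the tissue as myocardium. Time is given as zeitgeber time (ZT), the hours since the lights came on. Hearts were taken every 4 h, on 3 occasions in the light (ZT03, ZT07, ZT11) and 3 in the dark (ZT15, ZT19, ZT23). Each time point has 4 hearts that the labels call biological replicates. Every group carries the mutation, and hearts of other genotypes were not analysed here, so no value below speaks of an effect of genotype.

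Proteins bound for the membrane or for secretion fold in the ER, where chaperones hold them, lectins bind their sugar chains, and disulfide isomerases set their cysteine bonds. When unfolded proteins build up, the sensors IRE1, PERK and ATF6 start the unfolded protein response, in which ATF6 and the spliced form of XBP1 raise the genes of chaperones and of ER-associated degradation. In heart muscle this machinery folds the ion channels, receptors and calcium-binding proteins of the sarcoplasmic reticulum. ATF6, together with the CCAAT-binding factor NF-Y, acts through a composite promoter sequence called the ER stress response element (ERSE).

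That element is shown first, because it lies before most of the chaperone genes whose values are followed below from heart to heart. The 250 bases before the annotated start of each gene (RefSeq, GRCm38.p6) were searched on both strands, and all 9 genes had such a window. ERSE, spelled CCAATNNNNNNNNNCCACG (CGTGGNNNNNNNNNATTGG on the other strand), was found before 37 of 32851 starts (0.113%) and before 27 of the 16990 measured genes that have such a window (0.159%). It was found before 5 of the 9 genes, namely Hspa5, Hsp90b1, Canx, Calr and Pdia6, with 2 matches before Hsp90b1. Since the 9 genes were named for ER folding and stress, this count and that of ERSE-II below describe them and test nothing. The matches are printed 5′ to 3′ on the strand of the gene with 20 bases to each side, and capitals mark the fixed letters of the motif. The 59 bases of Hspa5 lie at chr2:34772005-34772063 on the plus strand. Those of Pdia6 lie at chr12:17266471-17266529 (plus), of Canx at chr11:50325780-50325838 (minus) and of Calr at chr8:84847055-84847113 (minus). Those of Hsp90b1 lie at chr10:86705618-86705676 and chr10:86705513-86705571 (minus). The match in Calr and the second one in Hsp90b1 run on the other strand.
Hspa5: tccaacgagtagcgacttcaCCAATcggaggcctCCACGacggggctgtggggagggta
Hsp90b1, first match: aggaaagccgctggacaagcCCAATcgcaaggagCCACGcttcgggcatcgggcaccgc
Hsp90b1, second match: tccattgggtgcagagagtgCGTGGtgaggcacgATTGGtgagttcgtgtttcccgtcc
Canx: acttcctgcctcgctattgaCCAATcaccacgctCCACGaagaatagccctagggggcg
Calr: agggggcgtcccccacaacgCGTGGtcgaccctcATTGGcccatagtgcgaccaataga
Pdia6: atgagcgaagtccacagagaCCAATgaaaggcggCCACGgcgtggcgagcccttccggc

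Herpud1 carries the shorter relative ERSE-II, spelled ATTGGNCCACG (CGTGGNCCAAT on the other strand), which was found before 0.0304% of starts. Its window of 51 bases lies at chr8:94386357-94386407 on the plus strand, with the motif at positions -52 to -42 from the start. It is printed because Herpud1 had a profile of its own.
Herpud1: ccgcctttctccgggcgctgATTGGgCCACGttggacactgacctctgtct

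The NF-Y box CCAAT, which on one strand or the other is part of both ERSE forms, was found before 8 of the 9 genes and 33.8% of all starts. The E-box CACGTG, the sequence that CLOCK and its partner bind, was found before Calr and 6.02% of starts. The amino acid response element, searched as TGATGNAA (TTNCATCA on the other strand), was found before Herpud1 and 3.45% of starts. The unfolded protein response element (UPRE) TGACGTGG (CCACGTCA) was found before 0 of the 9 genes and 0.563% of starts. Pdia3, Sel1l and Xbp1 held no match to ERSE, ERSE-II or UPRE in this window.

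**Figure D1:**
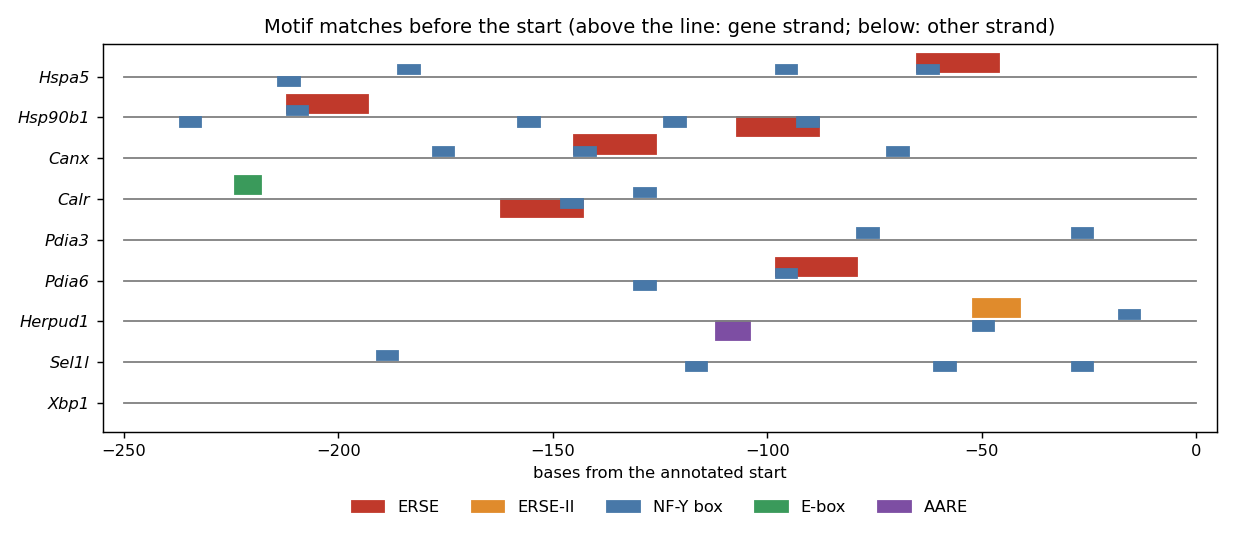
Motif matches in the 250 bases before the annotated start (position 0, horizontal axis in bases) of the 9 genes, 1 line per gene; boxes above a line lie on the gene's strand and boxes below it on the other strand. ERSE boxes appear in Hspa5, Hsp90b1 (2), Canx, Calr and Pdia6 between positions -212 and -47, and the ERSE-II box in Herpud1.

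The deposited log values, taken as log2, have each feature centred on its own median over the 24 hearts. A value therefore gives a heart's distance from the median heart for 1 gene, and does not allow the level of one gene to be compared with that of another. The grid of the deposited numbers shows which features lay at 8 or above before centring: 1.94% of all features, 9 of 10 cardiomyocyte markers, and among the genes followed here Hsp90b1, Canx, Calr and Herpud1. In bulk tissue, fewer cells of a type and less RNA per cell cannot be told apart. Single hearts stood apart. ZT23 replicate 1 was above the other 23 hearts in 6 of the 9 genes, as against 4.92% of all genes. ZT19 replicate 2 was above them in Herpud1. ZT11 replicate 1 lay outside the range of the others in 16.2% of all genes, where the other hearts lay outside it in 6.16% to 12.4%, and was the lowest in Canx and Pdia6.

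Of the 9 genes, 0 passed any of the 7 tests over all genes with limma at an adjusted p of 0.05, so the differences below are given as values. The smallest adjusted p was 0.055, for Pdia3 in the F test over the 6 time points. This test called 1.48% of all genes. At an unadjusted p under 0.05, where it called 13.4% of all genes, 5 of the 9 lay: Canx, Herpud1, Hsp90b1, Pdia3 and Sel1l. Between light (ZT03, ZT07 and ZT11) and dark (ZT15, ZT19 and ZT23), which gave an adjusted p under 0.05 for 0.379% of all genes and an unadjusted one for 10.5%, the same 5 genes had an unadjusted p under 0.05. The difference was negative for Canx, Herpud1, Hsp90b1 and Pdia3 and positive for Sel1l, while 4.23% of all genes had an unadjusted p under 0.05 with a negative difference and 6.3% with a positive one. Without ZT23 replicate 1, Hsp90b1 came to an unadjusted p of 0.053 and the other 4 stayed under 0.05. The light-minus-dark difference was below 0 for 7 of the 9 genes and for 52.6% of all genes, with medians of -0.079 and -0.0022.

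The 6 folding genes shared the time of their highest mean. Hspa5, Hsp90b1, Canx, Calr, Pdia3 and Pdia6 all had it at ZT23, the last time point of the dark, as did 16.3% of all genes. Hspa5, Hsp90b1, Pdia3 and Pdia6 had their lowest mean at ZT11, the last time point of the light, as did 18.1% of all genes. Averaged over the 6 genes within a heart, the values were -0.092 ± 0.097 (SD, n = 4) at ZT11 and 0.14 ± 0.13 (SD) at ZT23, with single hearts between -0.16 and 0.053 and between 0.022 and 0.32. Herpud1 and Sel1l, both of ER-associated degradation, and Xbp1 did not share this shape. Without ZT23 replicate 1, the highest mean stayed at ZT23 for Hspa5, Hsp90b1, Canx and Pdia3 and was at ZT03 for Calr and at ZT19 for Pdia6.

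**Figure D2:**
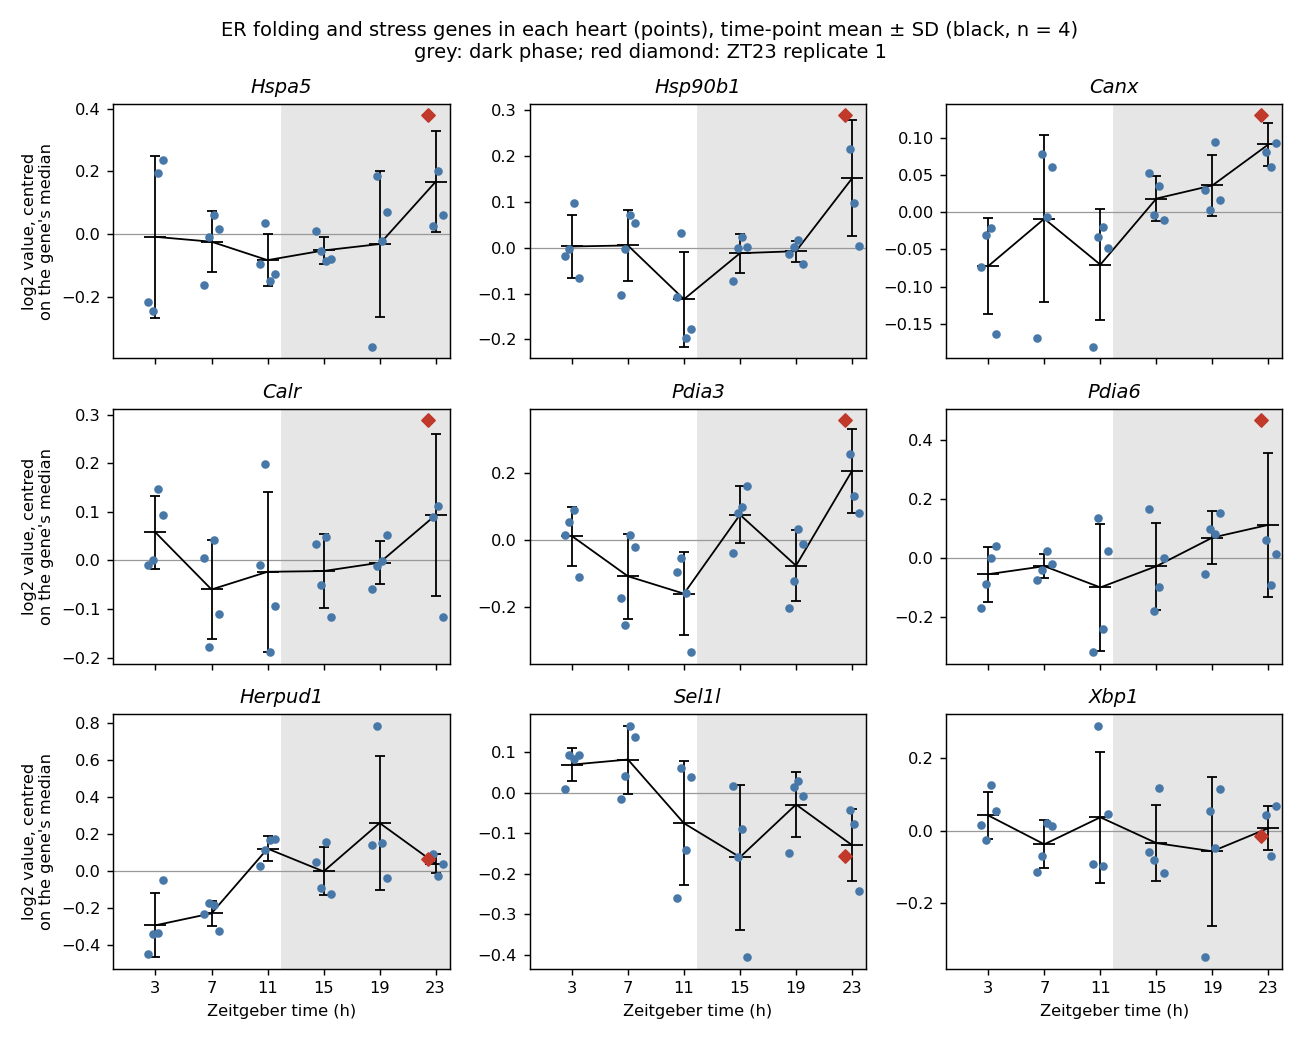
Each panel shows 1 gene, with zeitgeber time in hours on the horizontal axis and the log2 value centred on the gene's median on the vertical axis; points are single hearts, black bars give the mean ± SD of 4 hearts, grey marks the dark phase and the red diamond is ZT23 replicate 1. The 6 folding genes have their highest mean at ZT23, Herpud1 lies below 0 in all hearts of ZT03 and ZT07, and Xbp1 has the smallest range of means.

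Hspa5 (Entrez Gene 14828) codes for BiP, the ER's Hsp70 chaperone, which binds unfolded chains and also holds the stress sensors inactive. Its hearts were at -0.095, 0.036, -0.15 and -0.13 at ZT11 (in the order of replicates 1 to 4, as throughout) and at 0.38, 0.027, 0.20 and 0.059 at ZT23. The ZT23 hearts were all above 0 but their lowest did not clear the highest ZT11 heart. At ZT03 the hearts were split, at -0.22, -0.25, 0.19 and 0.23, and at ZT19 they ran from -0.36 to 0.18. The SD within time points, 0.17, was larger than that of 93.8% of all genes. In the light the mean was -0.0091 ± 0.26 (SD, n = 4) at ZT03, then -0.025 ± 0.097 at ZT07 and -0.084 ± 0.082 at ZT11. In the dark it was -0.053 ± 0.043 at ZT15, then -0.032 ± 0.23 at ZT19 and 0.17 ± 0.16 at ZT23. The tight hearts of ZT15, from -0.085 to 0.0088, lay below all hearts of ZT23, an order found in 1.39% of all genes. The F test over time points gave an adjusted p of 0.73 with limma.

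Hsp90b1 (Entrez Gene 22027) codes for GRP94, the ER's Hsp90, which finishes the folding of a narrower set of clients such as integrins and Toll-like receptors. Its SD within time points, 0.082, was below that of Hspa5. Its ZT23 hearts were at 0.29, 0.22, 0.097 and 0.0029 and its ZT11 hearts at -0.11, 0.032, -0.20 and -0.18, so ZT11 replicate 2 lay above ZT23 replicate 4. At ZT15 and ZT19 the hearts stayed close to the median, from -0.073 to 0.024 and from -0.036 to 0.017. The means went from -0.11 ± 0.10 (SD, n = 4) at ZT11 to -0.012 ± 0.042 at ZT15, -0.0077 ± 0.023 at ZT19 and 0.15 ± 0.13 at ZT23, and were 0.0026 ± 0.068 at ZT03 and 0.0049 ± 0.078 at ZT07. The F test had an unadjusted p of 0.0064 and an adjusted p of 0.15 with limma.

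Canx (Entrez Gene 12330) codes for calnexin, the membrane-bound lectin that holds newly glycosylated proteins. It had the narrowest spread of the 9 genes, with an SD within time points of 0.066. Its hearts were at -0.073, -0.030, -0.022 and -0.16 at ZT03, at -0.18, -0.034, -0.019 and -0.048 at ZT11 and at 0.13, 0.081, 0.061 and 0.093 at ZT23. All hearts of ZT03 and of ZT11 were below 0 and all hearts of ZT23 above it. Those of ZT11 lay below all hearts of ZT15 (as in 1.77% of all genes), ZT19 (2.52%) and ZT23 (1.7%), and those of ZT03 did so too (3.41%, 2.25% and 2.89%). As in Hspa5, all ZT15 hearts lay below all ZT23 hearts. ZT07 was mixed, from -0.17 to 0.078, with a mean of -0.0087 ± 0.11 (SD, n = 4). The 12 light-phase hearts ran from -0.18 to 0.078 with a median of -0.032, the 12 dark-phase hearts from -0.010 to 0.13 with a median of 0.044. The difference of light minus dark was -0.099 ± 0.027 (SE), with an unadjusted p of 0.0014 and an adjusted p of 0.11 with limma.

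Calr (Entrez Gene 12317) codes for calreticulin, the soluble partner of calnexin, which also binds calcium and is needed for the heart to form. Its values were spread at ZT11, at -0.010, 0.20, -0.19 and -0.094, and at ZT23, at 0.29, 0.090, 0.11 and -0.12, and these hearts overlapped. Its range of means, 0.15, was the smallest of the 6 folding genes, with means from -0.060 ± 0.10 (SD, n = 4) at ZT07 to 0.093 ± 0.17 at ZT23. The adjusted p of its F test was 0.78 with limma, and light minus dark was -0.031 ± 0.045 (SE).

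Pdia3 (Entrez Gene 14827) codes for ERp57, the disulfide isomerase that works on the clients of calnexin and calreticulin. Its ZT23 hearts were at 0.36, 0.26, 0.13 and 0.080, while its ZT11 hearts were at -0.096, -0.053, -0.16 and -0.34 and its ZT07 hearts at -0.17, -0.26, 0.014 and -0.021. All ZT23 hearts lay above all hearts of ZT07 (as in 2.23% of all genes), ZT11 (1.7%) and ZT19 (1.54%). The profile had a second high mean at ZT15, of 0.075 ± 0.085 (SD, n = 4), with -0.077 ± 0.11 at ZT19 and 0.21 ± 0.13 at ZT23. The means of the light phase were 0.011 ± 0.088 at ZT03, -0.11 ± 0.13 at ZT07 and -0.16 ± 0.12 at ZT11. The range of means, 0.37, compares with a median of 0.12 over all genes. The F test ranked Pdia3 365th of 22180 genes by p, at an unadjusted p of 0.00091 and an adjusted p of 0.055 with limma. That call changed with single hearts: the adjusted p was 0.049 without ZT03 replicate 4 and 0.049 without ZT15 replicate 1.

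Pdia6 (Entrez Gene 71853) codes for P5, a disulfide isomerase that works with BiP. Its hearts were at -0.32, 0.14, -0.24 and 0.026 at ZT11 and at 0.47, 0.060, -0.091 and 0.016 at ZT23, and the groups overlapped widely. ZT23 replicate 1 lay far from the rest, and without it the ZT23 mean went from 0.11 to -0.0051. The other means ran from -0.099 ± 0.22 (SD, n = 4) at ZT11 to 0.070 ± 0.089 at ZT19. The F test gave an adjusted p of 0.76 with limma, and light minus dark was -0.11 ± 0.060 (SE), or -0.073 without that heart.

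Herpud1 (Entrez Gene 64209) codes for a membrane protein of the ER that helps to assemble the ubiquitin ligase complex of ER-associated degradation and that is itself strongly raised by ER stress. It had the widest profile of the 9 genes, low early in the light. Its hearts were at -0.45, -0.34, -0.34 and -0.048 at ZT03, at -0.23, -0.18, -0.18 and -0.33 at ZT07 and at 0.029, 0.11, 0.17 and 0.17 at ZT11. All 8 hearts of ZT03 and ZT07 were below 0, against 4 of the 16 later hearts. The ZT07 hearts lay below all ZT11 hearts, as in 2.14% of all genes, and below all hearts of ZT15 (2.48%), ZT19 (1.84%) and ZT23 (2.23%). The ZT03 hearts lay below all hearts of ZT11 (3.47%), ZT19 (2.25%) and ZT23 (2.89%) but not of ZT15.

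The means of Herpud1 were -0.29 ± 0.17 (SD, n = 4) at ZT03 and -0.23 ± 0.069 at ZT07, against 0.12 ± 0.066 at ZT11. In the dark they were -0.0028 ± 0.13 at ZT15, then 0.26 ± 0.36 at ZT19 and 0.040 ± 0.051 at ZT23. The ZT19 mean rests on replicate 2, at 0.79, since the other ZT19 hearts were at 0.14, 0.15 and -0.039. The range of means was 0.55, and the F test gave an unadjusted p of 0.0011 and an adjusted p of 0.063 with limma. Without ZT19 replicate 2 the range was 0.41, and the adjusted p, 0.016, passed the threshold. It also passed without ZT03 replicate 4 (0.041) and without ZT19 replicate 4 (0.030).

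The light-phase hearts of Herpud1 ran from -0.45 to 0.17 with a median of -0.18, the dark-phase hearts from -0.12 to 0.79 with a median of 0.056. The ranges overlapped, and the ZT11 hearts, though in the light, were all above 0. Light minus dark was -0.23 ± 0.068 (SE) with an unadjusted p of 0.0027 and an adjusted p of 0.16 with limma, and -0.17 without ZT19 replicate 2. Between time points 12 h apart, ZT07 minus ZT19 was -0.49 ± 0.12 (SE, unadjusted p 0.00051, adjusted p 0.35) and -0.31 without that heart. In this contrast 0.0% of all genes passed, and 5.58% had an unadjusted p under 0.05, as did Herpud1 alone of the 9. ZT03 minus ZT15 was -0.29 ± 0.12 (SE, adjusted p 0.28), where 1.08% of all genes passed and 13.0% had an unadjusted p under 0.05, as did Herpud1 and Sel1l.

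Sel1l (Entrez Gene 20338) codes for the adaptor that links substrates to the same ubiquitin ligase complex. Its light-minus-dark difference was opposite in sign to that of the folding genes. Its hearts were at 0.0086, 0.093, 0.083 and 0.094 at ZT03, at -0.016, 0.042, 0.16 and 0.14 at ZT07 and at -0.16, -0.042, -0.077 and -0.24 at ZT23. All hearts of ZT03 and of ZT07 were above all hearts of ZT23, as in 4.65% and 3.89% of all genes. At ZT15 replicate 4 was lowest, at -0.41, with the others at 0.016, -0.16 and -0.088. Light minus dark was 0.13 ± 0.045 (SE), with an unadjusted p of 0.0081 and an adjusted p of 0.26 with limma. ZT03 minus ZT15 was 0.23 ± 0.078 (SE, adjusted p 0.17).

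Xbp1 (Entrez Gene 22433) codes for the transcription factor whose messenger RNA is spliced by the sensor IRE1. The 1 value of its feature does not separate the spliced from the unspliced form. Its means lay between -0.057 ± 0.21 (SD, n = 4) at ZT19 and 0.042 ± 0.065 at ZT03, the smallest range of the 9 genes at 0.099, which is below the median of all genes. Single hearts ran from -0.35 (ZT19 replicate 1) to 0.29 (ZT11 replicate 2). The F test gave an adjusted p of 0.94 with limma, and light minus dark was 0.042 ± 0.050 (SE), less than 1 SE from 0.

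Most neighbouring means lay closer together than the SD of single hearts. When the 6 means of each gene were ranked, 5 of the 45 gaps between neighbours exceeded that gene's SD within time points, and in 1 of them, Herpud1 at ZT15 above ZT07, the hearts of both time points were separate as well. The others were ZT23 above the next time point in Hspa5 (a gap of 0.18), Hsp90b1 (0.15) and Pdia3 (0.13), and ZT15 above ZT11 in Hsp90b1 (0.10). The SD is that of single hearts and not the error of a mean, so these gaps are no test of order. The share of such gaps over all genes was not counted.

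ZT11 and ZT23, the last time points of light and dark, were compared as a pair 12 h apart. ZT11 minus ZT23 was -0.37 ± 0.075 (SE) for Pdia3, -0.26 ± 0.056 for Hsp90b1, -0.25 ± 0.11 for Hspa5, -0.21 ± 0.10 for Pdia6, -0.16 ± 0.046 for Canx and -0.12 ± 0.078 for Calr. For Herpud1, Sel1l and Xbp1 it was 0.081 ± 0.12, 0.054 ± 0.078 and 0.030 ± 0.086. The median of the 9 was -0.16, while that of all genes was 0.00044 and 90% of all genes lay between -0.14 and 0.13. With limma, 0.0% of all genes passed this contrast and 7.34% had an unadjusted p under 0.05. Of the 9 genes, Pdia3 (p 8.3e-05), Hsp90b1 (p 0.00014), Canx (p 0.0023) and Hspa5 (p 0.035) were among the latter. Pdia3 and Hsp90b1 ranked 13th and 21st of 22180 genes by p, each with an adjusted p of 0.13.

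Part of the size rests on single hearts. Without ZT23 replicate 1, ZT11 minus ZT23 was -0.32 for Pdia3 (adjusted p 0.22), -0.22 for Hsp90b1 (0.23), -0.18 for Hspa5 and -0.15 for Canx. For Pdia6 and Calr it came to -0.094 and -0.052 (adjusted p 0.88 and 0.94 with limma). In that heart the 6 folding genes were at 0.38 (Hspa5), 0.29 (Hsp90b1), 0.13 (Canx), 0.29 (Calr), 0.36 (Pdia3) and 0.47 (Pdia6). The highest of the other 23 hearts were at 0.23, 0.22, 0.095, 0.20, 0.26 and 0.17. Of 109 other ER genes measured, 10 were also highest in it, as were 4.92% of all genes, and 6 were lowest, as were 4.26%. Of the 14 partners of BiP and GRP94, Hyou1 and Dnajb11 were highest in it and Dnajb9 and Cnpy3 lowest. The other 8 that were highest were Atf3, Ppp1r15a, Mbtps1, Nfyb, P4hb, Serpinh1, Lman2 and Ssr2, and the other 4 that were lowest were Atf6, Dad1, Spcs1 and Spcs3. With single hearts left out in turn, Pdia3 came nearest to 0 without ZT11 replicate 4 (-0.31). Canx did so without ZT11 replicate 1 (-0.12). ZT11 replicate 1 was lowest in 17 of the 109 other ER genes and highest in 3, against 9.04% and 7.12% of all genes. Such counts were found in further hearts. ZT03 replicate 4 was highest in 13 of the 109, against 5.46% of all genes. ZT19 replicate 1 and ZT23 replicate 4 were each lowest in 14 (5.28% and 6.68% of all genes), and ZT15 replicate 3 in 12 (4.16%).

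**Figure D3:**
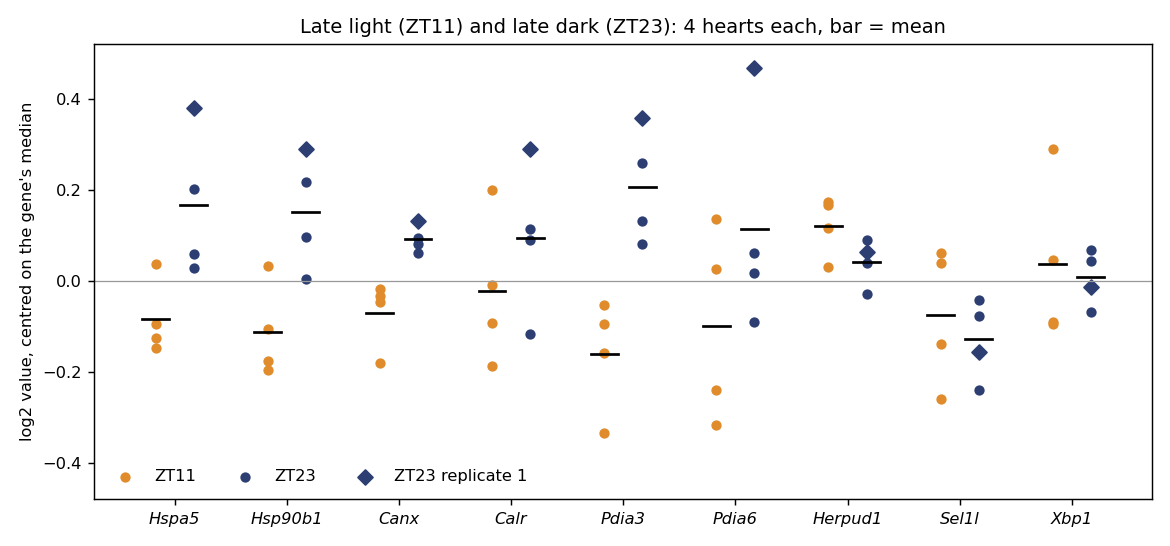
Log2 values centred on each gene's median (vertical axis) in the 4 hearts of ZT11 (orange) and the 4 hearts of ZT23 (blue) for the 9 genes; black bars are means and the diamond is ZT23 replicate 1. The ZT11 and ZT23 hearts are separate for Canx and Pdia3 and overlap for the other 7 genes.

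A cosine of 24 h placed the fitted peaks of the 6 folding genes late in the dark, from ZT20.3 for Canx to ZT23.6 for Hspa5. The amplitudes, from mean to peak, were 0.12 ± 0.039 (SE) for Pdia3, 0.091 ± 0.045 for Hspa5, 0.090 ± 0.041 for Pdia6, 0.088 ± 0.025 for Hsp90b1, 0.062 ± 0.031 for Calr and 0.061 ± 0.021 for Canx. Herpud1 had the largest, 0.23 ± 0.055 with a peak at ZT17.1, and Sel1l had 0.098 ± 0.034 with a peak at ZT4.94. The median amplitude was 0.090 over the 9 genes and 0.032 over all genes. The 24 h test called 0.0631% of all genes and 0 of the 9 (smallest adjusted p 0.18 with limma, Herpud1). At an unadjusted p under 0.05, as for 10.8% of all genes, lay Canx, Herpud1, Hsp90b1, Pdia3 and Sel1l, of which Canx and Pdia3 did not without ZT23 replicate 1. With 1 cycle sampled, the cosine describes the profile and not whether it repeats.

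Profiles of 12 h have been described for ER stress genes in mouse tissues, so a 12 h term was tested beside that of 24 h. It called 0.00451% of all genes and 0 of the 9. Herpud1, with an amplitude of 0.14 ± 0.049 (SE), had an unadjusted p of 0.039 and an adjusted p of 0.44 with limma, where 10.5% of all genes had an unadjusted p under 0.05. For Pdia3, with its high means at ZT15 and ZT23, the amplitude was 0.085 ± 0.036 (adjusted p 0.57). Xbp1 and Hspa5 had 0.041 ± 0.035 and 0.048 ± 0.046. The median over the 9 genes was 0.041, against 0.031 over all genes.

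Most pairs of folding genes were correlated over the 24 hearts. Over 36 pairs of the 9 genes and 24 hearts, 10 pairs passed a permutation test (two-sided, 100000 permutations, Benjamini-Hochberg over 36 pairs), and all 10 were among the 15 pairs of folding genes. Hsp90b1 and Pdia3 had the closest relation, with Pearson's r of 0.80 (permutation p 1e-05, the smallest these permutations can give, adjusted p 0.00036) and Spearman's rho of 0.73 (permutation p 0.00011). For Hspa5 and its partner Pdia6, r was 0.62 (adjusted permutation p 0.017) and rho 0.59. For Hsp90b1 and Calr, r was 0.63 and rho 0.46. The 2 lectins Canx and Calr, in contrast, had an r of 0.038. By Spearman's rho, 5 pairs passed. The median r was 0.55 over the 15 folding pairs and 0.19 over the 21 pairs with Herpud1, Sel1l or Xbp1, of which 0 passed. Pairs drawn from all genes were not put through this test, so the count of 10 has no background. For Hspa5 alone, the median r with all genes was -0.0039. The other 5 folding genes had a higher r with it than 89.6% (Canx) to 99.9% (Pdia6) of genes.

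These relations rest in part on ZT23 replicate 1. Without it 1 pair passed, Hsp90b1 and Pdia3 (r = 0.73), and the median r of the 15 pairs was 0.38. With the 2 hearts farthest from the median of the first gene of each pair left out, the same pair passed alone (r = 0.66), and the median was 0.40. Without ZT11 replicate 3, 5 pairs passed. When each time point's mean was subtracted, the median r was 0.37 over the 15 folding pairs and 0.31 over the other 21, with 0.74 for Hsp90b1 and Pdia3 and 0.56 for Sel1l and Xbp1. All pairs share the arrays of the same 24 hearts.

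**Figure D4:**
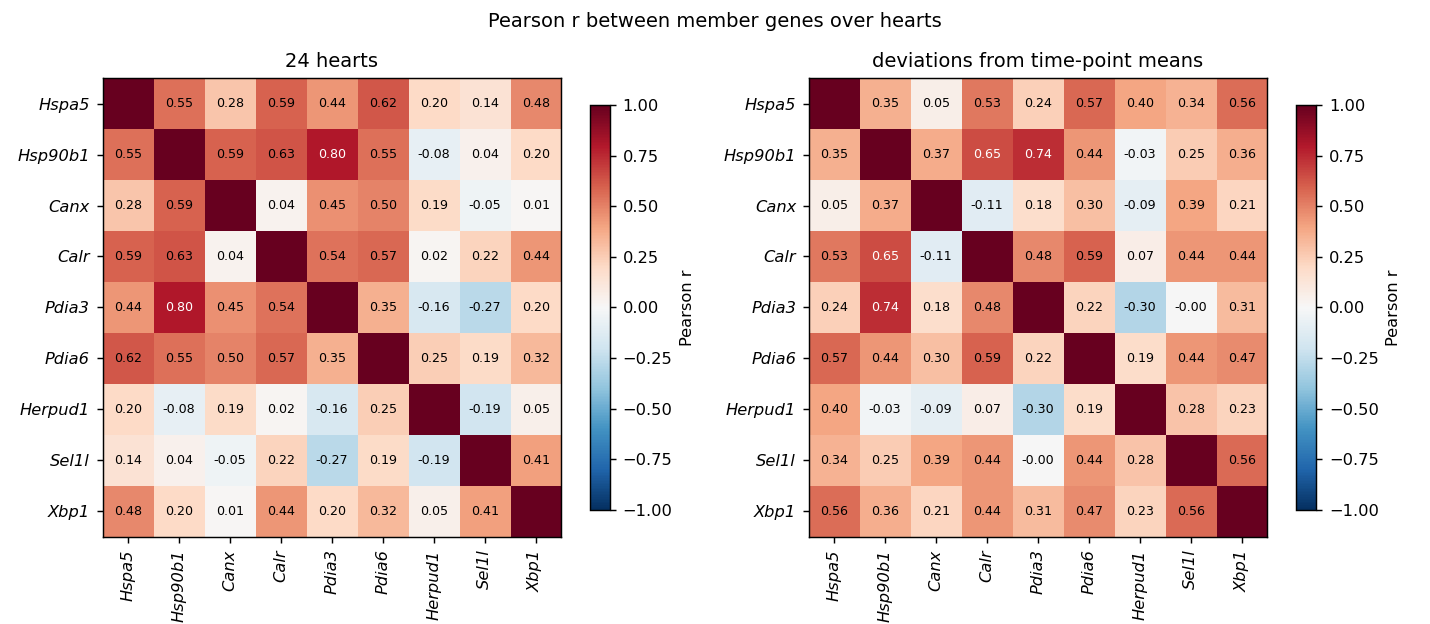
Pearson's r between each pair of the 9 genes, written in each cell and coloured from blue (-1) to red (1), over the values of 24 hearts (left) and over deviations from the time-point means (right). Among the 6 folding genes the highest value is that of Hsp90b1 and Pdia3, 0.80 on the left and 0.74 on the right, and Canx with Calr stands at 0.04 and -0.11.

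Genes most like the set were ranked by Pearson's r over the 24 hearts, as a description. The closest to the mean of the 9 genes were Aldh8a1 (r = 0.79), Mylk (0.77), Car4 (0.76), Csn1s2b (0.74), Chd7 (0.70) and Piwil2 (0.68). The closest to Hspa5 were Aldh8a1 (0.77), Mylk (0.72), Deaf1 (0.72), Hyou1 (0.70), Krba1 (0.66) and Ly6d (0.64), with gene models that have no proper symbol left out. Hyou1, the gene of an ER chaperone that exchanges nucleotides on BiP, was highest in ZT23 replicate 1 too, and its r with Hspa5 was 0.59 without that heart. Mylk, Car4, Csn1s2b, Chd7, Piwil2 and Krba1 were also highest in it. Without it, r with the mean of the 9 ran from 0.75 (Aldh8a1) to 0.58 (Chd7) in the genes named. Their r with Hspa5 ran from 0.72 (Aldh8a1) to 0.52 (Krba1). Among 22179 other genes, Pdia6 ranked 14th in likeness to Hspa5, Calr 25th, Hsp90b1 66th, Xbp1 240th and Pdia3 405th. Canx, Herpud1 and Sel1l ranked 2313th, 4025th and 5634th.

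The wider ER machinery was taken as 6 lists of 116 genes, of which 109 were measured. In light minus dark, 20 of the 109 (18.3%, against 10.5% of all genes) had an unadjusted p under 0.05 and 1 passed over all genes with limma, as did 0.379% of all genes. That gene was Serpinh1, which codes for the collagen chaperone HSP47. Its means were -0.12 ± 0.15 (SD, n = 4) at ZT03, -0.16 ± 0.13 at ZT07 and -0.13 ± 0.15 at ZT11, then 0.14 ± 0.11 at ZT15, 0.063 ± 0.10 at ZT19 and 0.17 ± 0.19 at ZT23. It was lower in the light, with a difference of -0.26 ± 0.055 (SE, adjusted p 0.036 with limma). The call held with 9 of the 24 hearts left out in turn, with adjusted p between 0.021 and 0.075 and differences between -0.29 and -0.24.

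Among the 14 measured partners of BiP and GRP94, 9 had a light-minus-dark difference below 0, with a median of -0.026, and the median of ZT11 minus ZT23 was -0.11. The highest mean lay at ZT23 for 6 of the 14. Manf, which codes for a secreted protein that binds BiP, was at -0.071 ± 0.027 (SE, adjusted p 0.34), while Cnpy2 (0.14 ± 0.038, adjusted p 0.11) and the reductase cochaperone Dnajc10 (0.13 ± 0.045, adjusted p 0.26) had positive differences. The list was mixed in sign, while all 6 folding genes had negative differences. In ZT11 minus ZT23, Dnajb11 was at -0.19 and Manf at -0.12.

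Of the 19 sensors and transcription factors of the unfolded protein response, 8 were below 0 in light minus dark (median 0.020) and 0 passed. Atf6, the sensor that is cut to a transcription factor, was at -0.10 ± 0.039 (SE, adjusted p 0.34), Mbtps2, the gene of a protease that cuts it, at 0.11 ± 0.045, and Atf4, the factor downstream of PERK, at -0.077 ± 0.037. In ZT11 minus ZT23, the stress factor gene Atf3 was at -0.34 and the NF-Y subunit gene Nfyb at -0.26, with adjusted p of 0.59 and 0.37.

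The 20 measured genes of oxidative folding and prolyl isomerization, which include Serpinh1, had a median light-minus-dark difference of 0.0077, with 9 below 0. Prdx4, the gene of the ER peroxiredoxin, was at 0.074 ± 0.031 (SE) and the prolyl isomerase gene Fkbp14 at 0.099 ± 0.044. Of 15 genes of N-glycosylation and glycoprotein quality control, 3 were below 0 (median 0.027), and Dad1, which codes for a subunit of oligosaccharyltransferase, was at 0.25 ± 0.075 (adjusted p 0.17). Stt3a, the catalytic subunit gene of that enzyme, was at 0.065 ± 0.046 and Uggt2 at 0.057 ± 0.037. These genes serve the same clients as Canx, Calr and Pdia3, whose differences were below 0.

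Of 22 measured genes of ER-associated degradation, 9 were below 0 in light minus dark (median 0.0099) and 0 passed. The ubiquitin ligase genes Marchf6 and Rnf5 were at 0.12 ± 0.043 (SE) and 0.11 ± 0.050, and Ubxn4 at -0.088 ± 0.039, so that negative and positive differences stood side by side as with Herpud1 and Sel1l. The 19 measured genes of the translocon and of exit from the ER were mostly on the positive side, with 4 below 0, a median of 0.050 and 6 at an unadjusted p under 0.05, all 6 positive. Ssr3, a translocon-associated subunit gene, was at 0.17 ± 0.052 (adjusted p 0.18), the retrieval receptor gene Kdelr2 at 0.17 ± 0.055 (adjusted p 0.20) and the signal peptidase gene Spcs1 at 0.11 ± 0.040 (adjusted p 0.31).

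**Figure D5:**
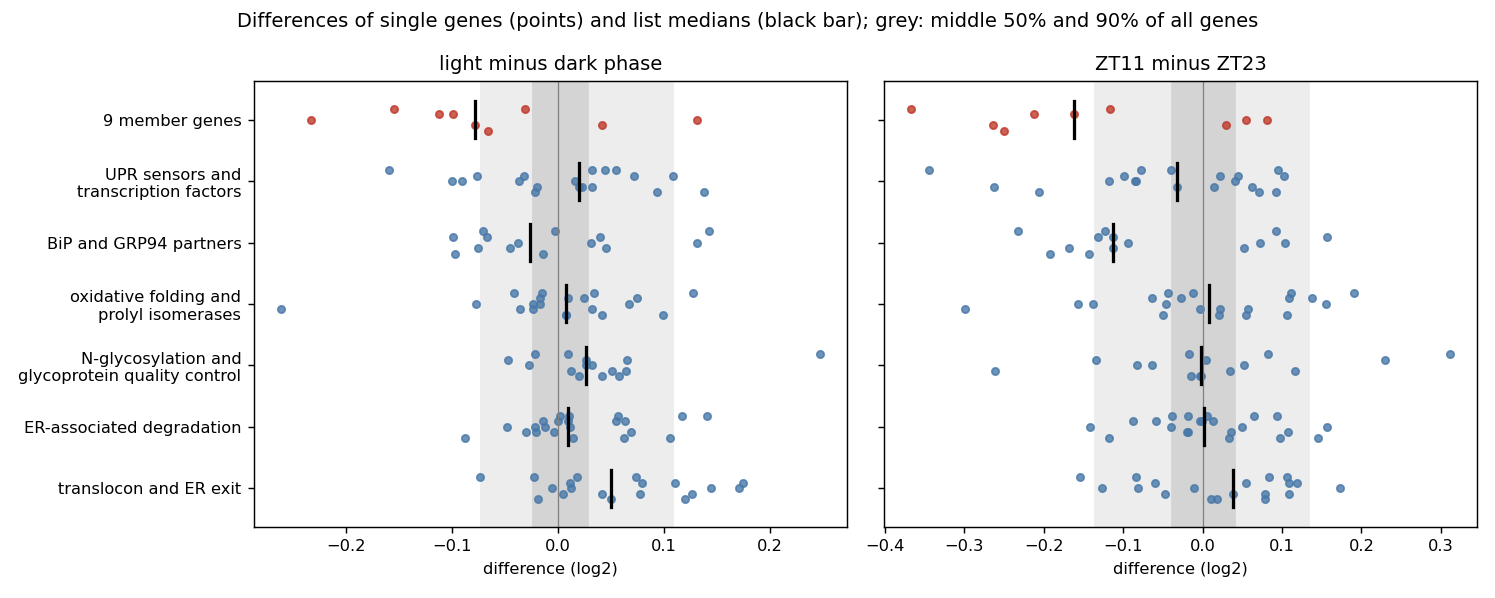
Log2 differences of single genes (points) in light minus dark (left) and ZT11 minus ZT23 (right) for the 9 genes and the 6 lists of other ER genes; black bars are medians, and grey bands hold the middle 50% and 90% of all 22180 genes. The median of the 9 genes is -0.079 on the left and -0.16 on the right, and that of the translocon and exit genes is 0.050 on the left.

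The other measured genes with an ERSE were split in sign. Over these 22 genes the median of ZT11 minus ZT23 was 0.0015, with 11 below 0 and 1 (4.55%) at an unadjusted p under 0.05, as against 7.44% of all genes with a promoter window. Of the 92 other ER genes with a window, 5 held an ERSE, and their ZT11 minus ZT23 values were -0.17 for Dnajc3, -0.11 for Creld2, -0.040 for Derl3, -0.0026 for Syvn1 and 0.14 for Ero1b.

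Markers of the heart's cell types stood beside these differences as follows. Of all genes, 52.6% were below 0 in light minus dark and 49.6% in ZT11 minus ZT23. All 10 fibroblast markers were above 0 in light minus dark (median 0.074, 4 at an unadjusted p under 0.05), the opposite sign from the folding genes and that of Sel1l. In ZT11 minus ZT23, 6 of the 10 were below 0 (median -0.00093, 0 at an unadjusted p under 0.05). The mean of the list ran from 0.047 to 0.17 in the ZT03 hearts, from -0.081 to 0.12 at ZT11 and from -0.088 to 0.043 at ZT23. Of 8 skeletal muscle markers, 7 were below 0 in light minus dark (median -0.060), and 3, all negative, had an unadjusted p under 0.05 with limma. In ZT11 minus ZT23, 6 of the 8 were below 0 (median -0.053). The highest mean lay at ZT23 for 5 of the 8, and 1 passed the F test, as did 1.48% of all genes. The list means ran from -0.18 to -0.013 at ZT03, from -0.016 to 0.076 at ZT11 and from 0.016 to 0.17 at ZT23. For plasma cells, which are rich in ER, 5 of 7 were below 0 in light minus dark, with a median of -0.0071. Their list means ran from -0.029 to 0.023 at ZT11 and from -0.037 to 0.065 at ZT23. Of 8 smooth muscle and pericyte markers, 2 were below 0 in light minus dark (median 0.045) and 3 in ZT11 minus ZT23 (median 0.035).

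Most endothelial and cardiomyocyte markers, like those of skeletal muscle, had the sign of the folding genes in light minus dark. In the endothelial and cardiomyocyte lists, 0 markers had an unadjusted p under 0.05 with limma in that contrast. Of 10 endothelial markers, 7 were below 0 in light minus dark (median -0.029) and 7 in ZT11 minus ZT23 (median -0.042), with list means from -0.11 to 0.073 at ZT11 and from -0.084 to 0.18 at ZT23. Of 10 cardiomyocyte markers, 7 were below 0 in light minus dark (median -0.014) and 6 in ZT11 minus ZT23 (median -0.0093), with list means from -0.082 to 0.099 at ZT11 and from -0.011 to 0.14 at ZT23. The highest ZT23 value of both lists was that of replicate 1, in which Pecam1, Tie1, Egfl7, Myh6 and Myl2 were above all other hearts. As a description, Pearson's r with the mean of the 6 folding genes over the 24 hearts was 0.46 for the cardiomyocyte list and 0.45 for the endothelial list, and 0.19 and 0.16 without that heart. It was -0.49 for the list of T and B cells, or -0.37 without that heart, and between -0.12 and 0.18 for the other marker lists. The part of these cell types in the differences of the 9 genes was not tested. Since values are centred, no marker can be called absent.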

How the data were processed

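Per the labels, total RNA of 24 snap-frozen hearts was purified with TRIzol and 500 ng of it was made into biotinylated cRNA. The values the authors deposited are logarithms, read here as log2, in which each of 34351 features had been centred on its median over the 24 arrays. Probe summarization, normalization and the log base are not given in the sources used here, and another base would change sizes but no p-value. Signal over background is unknown, and the number of arrays limits the precision.

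Of the features, 23521 had 1 gene symbol in the platform annotation. Features of a gene were averaged to 22180 genes, all of which were tested without a filter. limma 3.58.1 in R 4.3.3 fitted 6 time-point means (F test, light minus dark, and time points 12 h apart) and cosines of 24 h and 12 h, with Benjamini-Hochberg adjustment over all genes. An error is the fit's SE where no SD is named. Pairs of genes were tested with 100000 permutations in Python 3.11.15 (numpy 2.4.6). Because 9 genes were measured, there were 36 pairs. On simulated data the F test recovered 24.5% of profiles with an amplitude of 0.1 and 79.5% at 0.2, the light-dark contrast 74.5% of differences of 0.2, and ZT11 against ZT23 34% of differences of 0.2. The changed genes were drawn from all genes, whose median SD within time points was 0.087. Of the 9 genes, only Canx (0.066) and Hsp90b1 (0.082) lay below it. The others reached 0.18 (Herpud1), so recovery can be lower for them.

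The genes and lists were chosen with earlier results of these data known. Named are all 9 genes, from each ER list the 3 genes with the smallest p in light minus dark and those that passed, and the 6 genes most like the mean of the 9 and most like Hspa5. Genes named for ZT11 minus ZT23, for ZT23 replicate 1 or for an ERSE were chosen after their values were seen. In the lists, 5 symbols were updated through RefSeq synonyms. Promoter sequences are RefSeq's for GRCm38.p6. Alternatives were other weights, normalizations, filters, a replicate block and each heart left out. No 2 arrays held identical values.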

Additional observations from a re-analysis of the deposited data

Results flagged for a closer look

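In Sel1l at ZT03, replicate 1 was at 0.0086, apart from the other hearts at 0.083 to 0.094, and its gap to the nearest of them was a larger share of the range than Dixon's critical value allows. It was the 1 such heart in 54 groups of 4 hearts, where chance gives about 2.7.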

How the results depend on the processing

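Among the 7 tests, 24 h, 12 h, ZT07 against ZT19 and ZT11 against ZT23 called 0 of the 9 genes under all 32 alternatives (smallest adjusted p with limma 0.074, 0.11, 0.11 and 0.10). The F test over time points called 2 genes (Herpud1 and Pdia3) with array weights, 2 (the same) with the 0.25 of genes of lowest SD left out, 1 (Herpud1) with quantile normalization and 1 (Herpud1) with ZT11 replicate 1 and ZT19 replicate 2 both left out, an alternative chosen after seeing the data. With single hearts left out it called 0 to 2. Light minus dark called 1 gene, Herpud1, with quantile normalization (adjusted p 0.046), and 0 with single hearts left out. ZT03 against ZT15 called 1, Herpud1, with both those hearts left out (adjusted p 0.0496). The cause of these changes was not tested. The SD filter lowered the number of genes tested and also changed the fit, as in the SE of Serpinh1 (0.0552 without it, 0.0541 with it). Correlated pairs numbered 1 to 11 with single hearts left out and 1 with the 2 farthest hearts left out. Under all 32 alternatives the sign stayed the same for light minus dark in Canx, Herpud1, Hsp90b1, Pdia3 and Sel1l, for ZT11 minus ZT23 in Canx, Hsp90b1, Hspa5 and Pdia3, and for ZT07 minus ZT19 in Herpud1. The light-minus-dark call of Serpinh1 was lost with the replicate block (adjusted p 0.061 with limma) and with both those hearts left out (0.068).

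Replicate numbers are shared by the time points, and whether they pair the hearts was not settled. Deviations of same-numbered hearts correlated at a median of -0.00075 (-0.23 to 0.23 over 60 pairs). Those of differently numbered hearts had a similar median of -0.00096 (-0.24 to 0.25 over 180 pairs). Of 24 hearts, 10 correlated best with their own number, but the count that chance gives was not computed, so it decides nothing. With the replicate block, 0 of the 9 genes were called in any test (adjusted p 0.088 for Pdia3 in the F test), and 11 pairs of genes were correlated.

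Centred values give no level, and below 8 faint signals could not be told from stronger ones.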
